A study of Homo sapiens with 12 samples.

Results

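The 32 p53 target genes examined here are genes whose transcription the tumor suppressor p53 is known to activate. They were chosen by gene name from a table of 26481 genes, and all 32 were found in it. RNA was sequenced from 12 samples of HEL, an established human erythroleukemia line with erythroid and megakaryocytic features that carries an activated JAK2 kinase. The question was whether the targets rose together in each relapse. The counts measure transcripts only, and the state and activity of the p53 protein in these cells were not analysed here, so a call of a target is not a measure of p53.

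All samples came from a barcoded HEL culture of many clones and were collected about 30 days after an exposure of 72 to 74 hours. NT samples (replicates 1 and 2) received no chemotherapy and only the DMSO vehicle. Doxo relapses (replicates 4, 5 and 6) had received 1.8 µM doxorubicin, which poisons topoisomerase and intercalates into DNA. Doxo+Cyta relapses (replicates 19, 20 and 22) had received 1.8 µM doxorubicin and 6 µM cytarabine, a cytidine analog that blocks DNA synthesis. Doxo+Cyta+DAC relapses (replicates 30, 31, 32 and 33) had received both drugs with 0.1 µM decitabine (DAC), a DNA methyltransferase inhibitor. No sample of DAC alone was analysed here, and the values describe regrown populations, not the cells during drug exposure. All groups are cultures of 1 line, and no separate animal or donor stands behind a replicate.

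p53 is a transcription factor that is stabilised after DNA damage and other stress. It binds a pair of short half-sites in or near its targets and switches on arrest genes, apoptosis genes, DNA repair genes and its own inhibitors, MDM2 foremost, which close a feedback loop. Several of these targets can also be switched on without p53, by growth factor signalling, by the integrated stress response or by FOXO factors.

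The scan for p53 response elements shows where the known binding sequence lies in these genes. Within 2500 bases on either side of the RefSeq gene start in GRCh38, the p53 consensus (a 20-base element made of 2 half-sites of 10 bases without spacer, with the central C and G of each half-site kept and at most 2 other mismatches, on both strands) was found in 13 of the 24 members that had a RefSeq start, or 54.2%. The same scan found it in 368 of 10261 tested genes, or 3.59%. The members are textbook targets, so the higher share restates how they are known and gives no test. The elements of 5 members on which the results below turn are printed on the strand of the gene, with the 20-base element in capitals and 10 flanking bases on each side. Those of CDKN1A, AEN and PLK2 lie upstream of the RefSeq start, at positions -2256, -25 and -2197 relative to it, and those of MDM2 and BAX lie inside the gene, 760 and 347 bases past the start.
CDKN1A (chr6:36676449-36676468, plus strand, 2 mismatches): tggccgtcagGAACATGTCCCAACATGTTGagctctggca
MDM2 (chr12:68808923-68808942, plus strand, 2 mismatches): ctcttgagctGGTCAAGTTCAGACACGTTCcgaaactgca
AEN (chr15:88621306-88621325, plus strand, 2 mismatches): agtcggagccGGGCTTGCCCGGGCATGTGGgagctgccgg
BAX (chr19:48955213-48955232, plus strand, 2 mismatches): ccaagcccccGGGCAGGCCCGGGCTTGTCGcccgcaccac
PLK2 (chr5:58462274-58462293, minus strand, 0 mismatches): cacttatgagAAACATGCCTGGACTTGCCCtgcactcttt

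Total counts ran from 12763582 to 19106235 per library, and no library duplicated another. Levels are given as CPM (the count of a gene scaled to the size of its library, with library sizes adjusted by the trimmed mean of M values), and differences as log2 fold changes ± SE from edgeR's quasi-likelihood test over 14164 genes, called at a Benjamini-Hochberg adjusted p under 0.05. In all, 29 of the 32 members had enough counts to be tested. PHLDA3, TNFRSF10C and SPATA18 had at most 6, 11 and 6 counts in any library and were not tested. All 14 markers of the HEL erythroid and megakaryocytic program were detected in every library, whereas markers of lymphoid, stromal, epithelial and endothelial cells summed to 102 to 145 CPM, nearly all of it PECAM1 (96.5 to 142 CPM), an adhesion molecule that megakaryocytic cells also carry. In the NT libraries 7 and 9 of these 15 markers stood at 0, and MS4A1 and KRT5 had no count in any library. Doxo replicate 4 and Doxo+Cyta replicate 20 stood apart from their group mates: the root mean square log2 difference over tested genes was 0.51 and 0.53 from Doxo 4 to the other Doxo libraries, against 0.30 between those, and 0.57 from Doxo+Cyta 20 to both of its mates, against 0.36 between those. Counts or estimates without these libraries are given for several comparisons, but the fold changes of single members in Doxo include replicate 4. Less RNA per cell and fewer expressing cells cannot be told apart in these bulk samples.

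Of the genes that act on p53, MDM4, the partner of MDM2 in restraining it, was not called in any of the 3 comparisons with NT (0.17 ± 0.19 for Doxo, 0.02 ± 0.19 after cytarabine was added and 0.32 ± 0.18 for Doxo+Cyta+DAC). CHEK1, a checkpoint kinase upstream of p53, measured 176 and 177 CPM in NT, 137 to 156 CPM in Doxo, 139 to 157 CPM in Doxo+Cyta and 212 to 230 CPM in Doxo+Cyta+DAC. It was higher in Doxo+Cyta+DAC than in NT (0.34 ± 0.10, edgeR adjusted p = 0.0111), whereas in Doxo (-0.27 ± 0.10) and Doxo+Cyta (-0.25 ± 0.10) it was not called although every library lay below NT. DESeq2, and edgeR without Doxo replicate 4, called CHEK1 lower in Doxo, and the Doxo+Cyta+DAC call was lost without a count filter and without either NT library. The related kinase CHEK2 was not called in any of the 3 (-0.22, -0.05 and 0.04 in the same order of groups).

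Levels differed widely between members when scaled by gene length. Averaged over the 12 libraries, GADD45A, CCNG1 and BTG2 stood highest at 173, 170 and 160 CPM per kilobase, and PLK2, TP53INP1 and TP53I3 stood lowest among the tested members at 0.455, 0.528 and 1.47 CPM per kilobase. PLK2, a polo-like kinase, thus rested on only 4 to 63 counts per library.

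**Figure D1:**
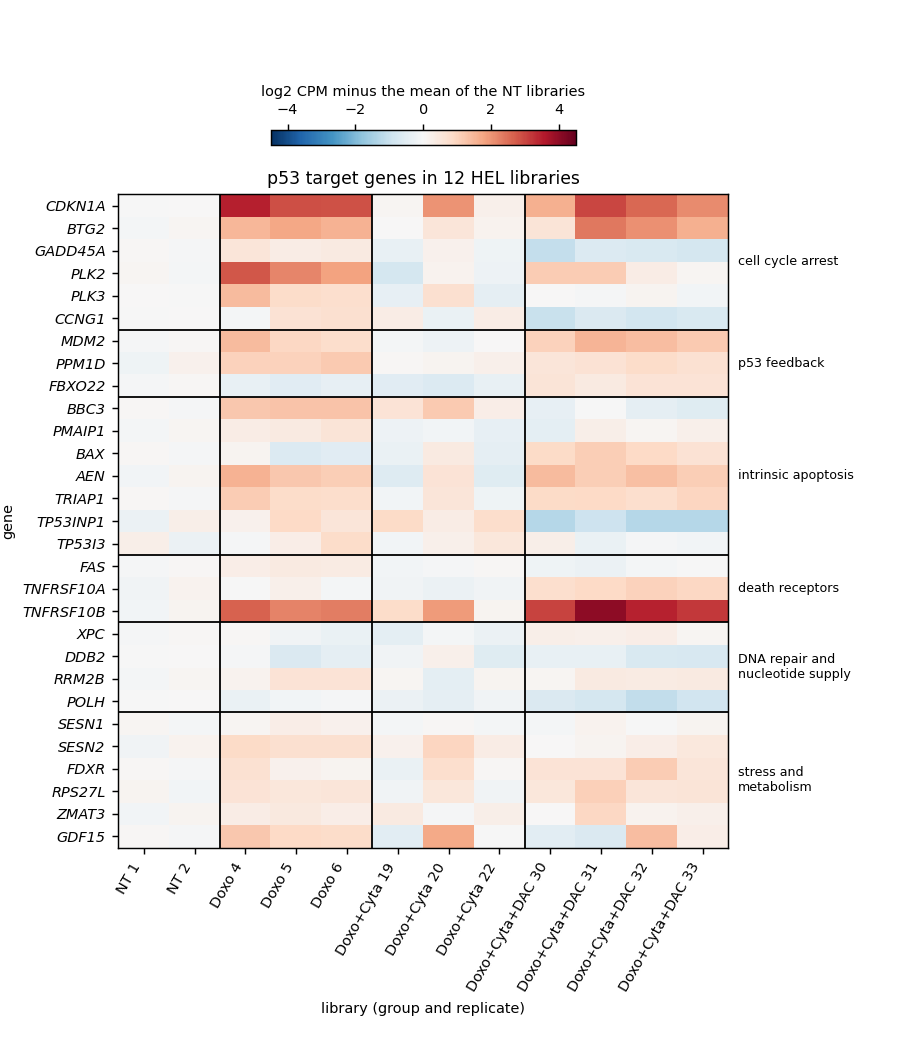
Level of each tested member in each library as log2 CPM minus the mean of the NT libraries (color; red is above, blue below), with genes grouped by role in rows and the 12 libraries in columns. Red cells run through most of the arrest, feedback and apoptosis rows in the 3 Doxo libraries, the Doxo+Cyta columns are pale except replicate 20, and the Doxo+Cyta+DAC columns mix deep red (TNFRSF10B, CDKN1A, BTG2) with blue (TP53INP1, GADD45A, CCNG1, POLH).

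In Doxo relapses, members were called only upward relative to NT. Of the 29 tested members, 11 were higher and 0 lower, or 37.9% called higher, where 6.06% of all tested genes were called higher and 4.63% lower. The arrest genes CDKN1A, BTG2, PLK2 and PLK3, the feedback genes MDM2 and PPM1D, the apoptosis genes BBC3, AEN and TRIAP1, the death receptor TNFRSF10B and the stress gene SESN2 made up the 11. The median log2 fold change over the 29 was 0.48, against 0.01 over all tested genes, and 24 of the 29 estimates were above 0. Of the 14 markers of the HEL program, the embryonic globin HBE1 was called higher in Doxo (151 and 176 CPM in NT, 1190 to 1240 CPM in Doxo, 2.88 ± 0.34) and 0 were lower. The part of that shift in the members' differences was not tested.

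CDKN1A encodes p21, the inhibitor of cyclin-dependent kinases through which p53 halts the cell cycle. It measured 11.1 and 11.4 CPM in NT, 128, 84.8 and 81.5 CPM in Doxo, 11.9, 46.0 and 13.1 CPM in Doxo+Cyta, and 34.5, 91.5, 67.7 and 49.7 CPM in Doxo+Cyta+DAC. All Doxo libraries lay far above NT, and the fitted level was 8.75-fold higher (3.13 ± 0.56, edgeR adjusted p = 0.0054), the largest change of any tested member in that comparison.

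BTG2, an antiproliferative gene that responds both to p53 and to growth factors, measured 171 and 193 CPM in NT, 508, 605 and 538 CPM in Doxo, 181, 266 and 205 CPM in Doxo+Cyta, and 271, 941, 763 and 550 CPM in Doxo+Cyta+DAC. Its Doxo libraries did not overlap those of NT, at a difference of 1.60 ± 0.36 (edgeR adjusted p = 0.0155). PLK2 measured 0.566 and 0.476 CPM in NT, 4.40, 2.79 and 2.15 CPM in Doxo, 0.247, 0.600 and 0.428 CPM in Doxo+Cyta, and 1.29, 1.31, 0.682 and 0.554 CPM in Doxo+Cyta+DAC. Low as it was, PLK2 stood higher in every Doxo library than in any library of the other groups, at 2.55 ± 0.47 over NT (edgeR adjusted p = 0.00604). PLK3, a related kinase of the stress response, measured 43.0 and 42.1 CPM in NT, 116, 74.8 and 71.7 CPM in Doxo, 32.8, 69.8 and 31.9 CPM in Doxo+Cyta, and 43.2, 40.9, 46.7 and 39.5 CPM in Doxo+Cyta+DAC, with a Doxo difference of 1.04 ± 0.29 over NT (edgeR adjusted p = 0.0385).

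MDM2 encodes the ubiquitin ligase that degrades p53 and is itself a p53 target. Its level was 83.6 and 91.0 CPM in NT, 235, 165 and 151 CPM in Doxo, 81.7, 74.5 and 88.2 CPM in Doxo+Cyta, and 179, 251, 231 and 196 CPM in Doxo+Cyta+DAC. The Doxo and Doxo+Cyta+DAC libraries lay above every NT and Doxo+Cyta library, and the Doxo difference from NT was 1.07 ± 0.19 (edgeR adjusted p = 0.00507). PPM1D, the phosphatase that switches the damage response off, measured 17.4 and 22.7 CPM in NT, 41.0, 41.3 and 45.6 CPM in Doxo, 20.8, 21.9 and 23.5 CPM in Doxo+Cyta, and 29.2, 31.3, 34.9 and 31.7 CPM in Doxo+Cyta+DAC. Its groups were ordered Doxo, then Doxo+Cyta+DAC, then the other two, with no overlap between Doxo and any other group, and Doxo stood 1.09 ± 0.15 above NT (edgeR adjusted p = 0.000979).

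BBC3 encodes PUMA, a BH3-only activator of mitochondrial apoptosis. It measured 44.1 and 40.4 CPM in NT, 97.4, 102 and 104 CPM in Doxo, 64.4, 95.3 and 52.0 CPM in Doxo+Cyta, and 32.5, 41.3, 31.9 and 28.7 CPM in Doxo+Cyta+DAC. The Doxo libraries were the highest of all, at 1.26 ± 0.22 over NT (edgeR adjusted p = 0.00449), and the Doxo+Cyta+DAC libraries sat within or under the NT range. AEN, an exonuclease that takes part in apoptotic DNA digestion, measured 55.7 and 67.1 CPM in NT, 181, 142 and 133 CPM in Doxo, 40.7, 92.5 and 41.4 CPM in Doxo+Cyta, and 163, 132, 158 and 130 CPM in Doxo+Cyta+DAC. Doxo and Doxo+Cyta+DAC overlapped each other and lay above the other groups, with a Doxo difference of 1.31 ± 0.29 from NT (edgeR adjusted p = 0.0147). TRIAP1, a small inhibitor of apoptosis, was also higher in Doxo (0.92 ± 0.19), whereas BAX, the pore-forming effector, was not called at -0.29 ± 0.25, and PMAIP1 (NOXA) was not called at 0.44 ± 0.19.

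TNFRSF10B, the TRAIL receptor DR5, measured 1.59 and 1.97 CPM in NT, 11.8, 8.79 and 9.34 CPM in Doxo, 3.22, 7.07 and 1.96 CPM in Doxo+Cyta, and 15.3, 31.2, 20.8 and 17.2 CPM in Doxo+Cyta+DAC. The 2 NT libraries and Doxo+Cyta replicate 22 were lowest, and every Doxo+Cyta+DAC library exceeded every other. The Doxo difference from NT was 2.48 ± 0.46, or 5.60-fold (edgeR adjusted p = 0.00656). Its sister receptor TNFRSF10A (DR4) differed by 0.04 ± 0.16 in Doxo, and FAS by 0.37 ± 0.14, neither of which was called.

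**Figure D2:**
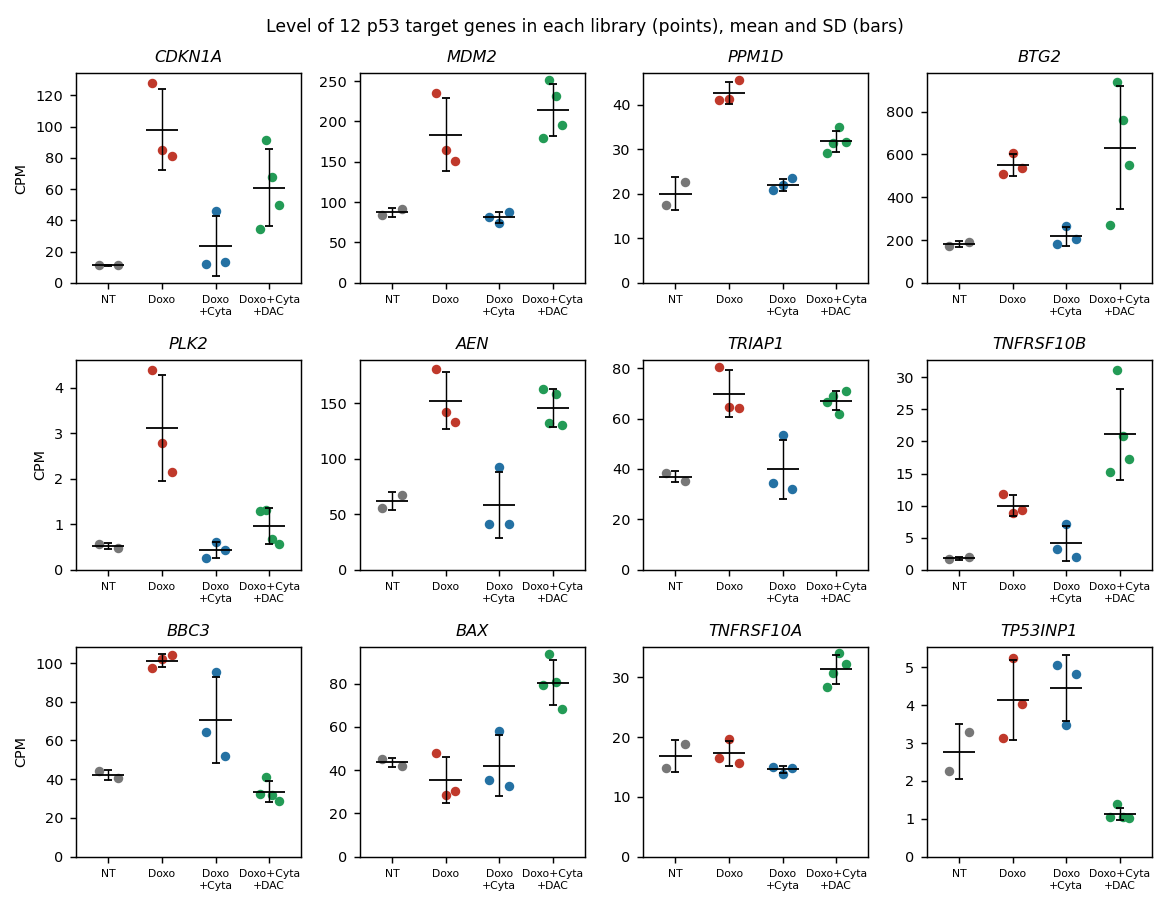
CPM of 12 members in each library (points, colored by group), with the group mean (horizontal line) and SD (error bar); each vertical axis starts at 0. CDKN1A, MDM2, AEN and TRIAP1 stand high in Doxo and Doxo+Cyta+DAC, BBC3 and PLK2 in Doxo, and BAX and TNFRSF10A in Doxo+Cyta+DAC, while TP53INP1 is lowest in Doxo+Cyta+DAC.

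None of the 4 DNA repair and nucleotide supply genes was called in Doxo. XPC and DDB2 recognise damage in nucleotide excision repair, POLH is a lesion bypass polymerase and RRM2B a ribonucleotide reductase subunit, and their differences from NT ran from -0.36 (DDB2) to 0.48 (RRM2B). In the stress and metabolism group SESN2, a sestrin that restrains mTORC1, was the 1 of 6 tested members called higher (0.77 ± 0.21, edgeR adjusted p = 0.0339), and the others ran from 0.21 (SESN1) to 1.00 (GDF15, a secreted stress cytokine whose SE was 0.63).

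The count of 11 depended on both NT libraries. Without NT replicate 1 or without NT replicate 2, with the lone NT library assumed to vary like the other groups, 1 member was called in each case (PPM1D, at 0.91 and 1.29), while 0.404% and 0.569% of all tested genes were called higher and the members' median ranged from 0.43 to 0.60 over all omissions of 1 library. Without Doxo replicate 4, 12 members were called higher and 1 lower (FBXO22), where 10.1% and 12.2% of all tested genes were called.

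In Doxo+Cyta relapses, 0 members were called higher and 0 lower relative to NT by edgeR, where 0.911% of all tested genes were called higher and 0.551% lower. DESeq2 called BBC3 higher and FBXO22 lower, and 5 of the 29 members had an unadjusted p under 0.05 in edgeR, as did 2888 of the 14164 tested genes, which is the larger share. The median over the 29 was 0.07, and 15 estimates were above 0. HBE1 was again the 1 HEL marker called, at 461 to 664 CPM (1.81 ± 0.32 over NT), a call that was lost without either NT library or without Doxo+Cyta replicate 22. The 95% interval of MDM2 ran from -0.49 to 0.29 and that of PPM1D from -0.17 to 0.45. That of CDKN1A ran from -0.06 to 2.20, so a rise of CDKN1A up to 2.20 was neither shown nor excluded. The CDKN1A estimate of 1.07 ± 0.52 rested on replicate 20, and without that library it was 0.13 (edgeR adjusted p = 0.863) and the members' median -0.14.

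Doxo+Cyta replicate 20 stood above replicates 19 and 22 for members that included CDKN1A, AEN, BBC3, PLK3, TRIAP1, BAX, FDXR, RPS27L, GDF15 and TNFRSF10B but not for MDM2 or CCNG1. Of the 29 members, 19 lay above the NT mean in replicate 20, against 9 in replicate 19 and 14 in replicate 22. By that count NT replicates 1 and 2 themselves gave 11 and 18, so 19 is near the NT range. The members' median log2 level relative to the NT mean was 0.23 in replicate 20. It was -0.13 and -0.01 in replicates 19 and 22, and -0.02 and 0.02 in NT. The summed level of the 18 immediate early genes, which growth factors and stress induce within minutes, was 2050 CPM in replicate 20 and 1210 and 1300 CPM in replicates 19 and 22. The part of that signal in the members' levels was not tested.

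In Doxo+Cyta+DAC relapses, members were called in both directions relative to NT. Of the 29, 12 were higher and 4 lower (41.4% and 13.8%), where 24.9% of all tested genes were called higher and 23.7% lower. The median over the members was 0.38, against 0.02 over all tested genes. TNFRSF10B, CDKN1A, BTG2, MDM2, AEN, TNFRSF10A, BAX, TRIAP1, FDXR, RPS27L, PPM1D and FBXO22 were higher, and TP53INP1, POLH, CCNG1 and GADD45A were lower.

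TNFRSF10B showed the largest difference, at 3.57 ± 0.46 or 11.9-fold (edgeR adjusted p = 4.1e-05), and TNFRSF10A was higher by 0.90 ± 0.15 (edgeR adjusted p = 0.000297). CDKN1A stood 2.44 ± 0.53 above NT (edgeR adjusted p = 0.00189), BTG2 1.79 ± 0.36 (edgeR adjusted p = 0.00103) and MDM2 1.30 ± 0.18 (edgeR adjusted p = 8.39e-05). All 3 feedback genes were called higher, PPM1D at 0.67 ± 0.14 and FBXO22, a substrate adaptor of a ubiquitin ligase, at 0.56 ± 0.14. Of the 7 tested apoptosis genes, AEN (1.25 ± 0.28), BAX (0.89 ± 0.24) and TRIAP1 (0.86 ± 0.18) were higher, BBC3 was not called at -0.33 ± 0.20 and PMAIP1 at 0.06 ± 0.18. FDXR, the ferredoxin reductase of mitochondrial steroid and iron-sulfur metabolism, was higher by 0.75 ± 0.27 and RPS27L, a ribosomal protein paralog, by 0.69 ± 0.20.

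TP53INP1, a nuclear cofactor of the p53 stress response, measured 2.26 and 3.28 CPM in NT, 3.14, 5.24 and 4.04 CPM in Doxo, 5.07, 3.47 and 4.83 CPM in Doxo+Cyta, and 1.04, 1.38, 1.05 and 1.03 CPM in Doxo+Cyta+DAC. The 4 Doxo+Cyta+DAC libraries were below all others, at -1.29 ± 0.29 relative to NT (edgeR adjusted p = 0.00224). POLH (-0.85 ± 0.14), CCNG1, which encodes cyclin G1 (-0.78 ± 0.20), and GADD45A, a stress sensor that acts on growth arrest and repair (-0.78 ± 0.15), were also lower in Doxo+Cyta+DAC, with no overlap of libraries with NT.

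Markers of the HEL program also differed from NT in Doxo+Cyta+DAC. HBE1 was higher (2.99 ± 0.33), as in the other relapses, and 6 of the 14 were lower (42.9%, against 23.7% of all tested genes), led by GP9 (-2.12), a platelet glycoprotein, and JAK2 (-1.40). Their summed level was 8530 to 11900 CPM in Doxo+Cyta+DAC, against 10100 and 11200 CPM in NT, 11800 to 13000 CPM in Doxo and 12400 to 13200 CPM in Doxo+Cyta. Among markers of other cell types the B-cell gene CD79A was called lower (-1.71), from 3.75 and 5.30 CPM in NT to 0.894 to 1.68 CPM. The part of these shifts in the members' differences was not tested.

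**Figure D3:**
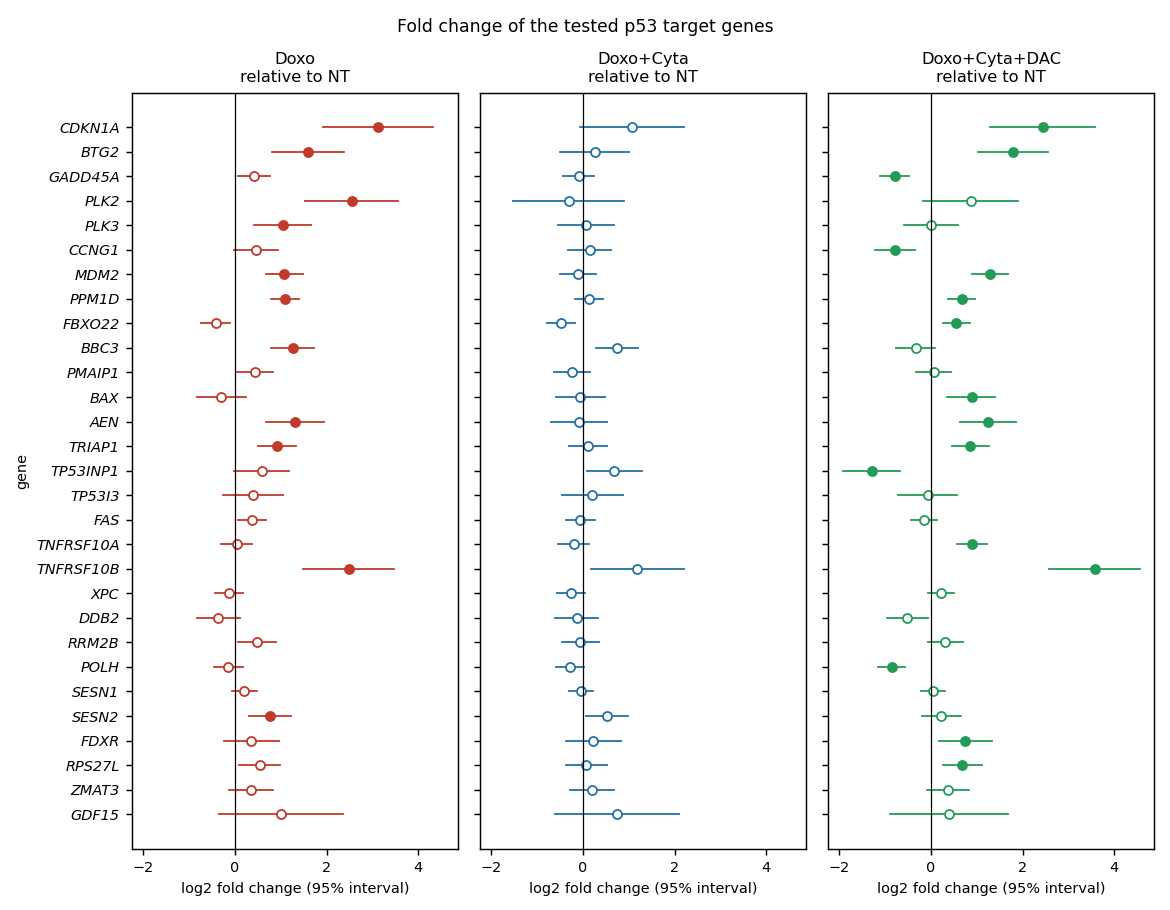
Log2 fold change of each of the 29 tested members relative to NT with its 95% interval (horizontal axis) in the 3 relapse groups; filled points were called at adjusted p under 0.05. There are 11 filled points in Doxo, all to the right of 0, the Doxo+Cyta panel has 0, and the Doxo+Cyta+DAC panel has 16, of which 4 lie to the left.

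The 3 comparisons share the same NT libraries, so the direct comparisons between relapses show where the groups differed. Between Doxo+Cyta+DAC and Doxo, 5 members were higher in Doxo+Cyta+DAC and 11 lower, or 17.2% and 37.9%, where 29.1% and 30.4% of all tested genes were called. The higher ones were BAX (1.18 ± 0.22), TNFRSF10B (1.08 ± 0.32), FBXO22 (0.98 ± 0.12), TNFRSF10A (0.86 ± 0.13) and XPC (0.35 ± 0.12). The lower ones were led by TP53INP1 (-1.88 ± 0.25), PLK2 (-1.68 ± 0.35), BBC3 (-1.59 ± 0.17), CCNG1 (-1.24 ± 0.18), GADD45A (-1.21 ± 0.13) and PLK3 (-1.04 ± 0.24), followed by POLH, SESN2, FAS, PPM1D and PMAIP1 between -0.71 and -0.38. CDKN1A (-0.69 ± 0.40), MDM2 (0.22 ± 0.15), BTG2 (0.20 ± 0.29), AEN (-0.06 ± 0.23) and TRIAP1 (-0.06 ± 0.16) were not called between these relapses. Without Doxo replicate 4, 6 members were higher in Doxo+Cyta+DAC and 11 lower, where 30.5% and 30.2% of all tested genes were called.

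The apoptosis genes BBC3 and BAX differed in opposite directions between these relapses. BBC3 was highest in Doxo and BAX in Doxo+Cyta+DAC, where it measured 68.3 to 93.5 CPM against 28.5 to 47.8 CPM in Doxo, 32.4 to 58.2 CPM in Doxo+Cyta and 41.9 and 45.1 CPM in NT. The difference between Doxo+Cyta+DAC and Doxo passed the test for both, at edgeR adjusted p = 5.19e-06 for BBC3 and edgeR adjusted p = 0.000337 for BAX.

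Between Doxo+Cyta+DAC and Doxo+Cyta, 13 members were higher and 5 lower, or 44.8% and 17.2%, against 29.8% and 30.5% of all tested genes. TNFRSF10B (2.38 ± 0.35), BTG2 (1.54 ± 0.30), MDM2 (1.39 ± 0.16), CDKN1A (1.37 ± 0.42), AEN (1.32 ± 0.25), PLK2 (1.17 ± 0.45) and TNFRSF10A (1.10 ± 0.13) led the higher ones, and TP53INP1 (-1.98 ± 0.25) and BBC3 (-1.07 ± 0.17) the lower ones. The libraries of CDKN1A and PLK2 overlapped between these groups, since Doxo+Cyta replicate 20 reached 46.0 CPM for CDKN1A. Without replicate 20, 14 members were higher and 5 lower, where 31.1% and 31.3% of all tested genes were called. The CDKN1A difference was then 2.28.

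Between Doxo and Doxo+Cyta, which differ by cytarabine, 8 members were higher in Doxo and 0 lower, or 27.6%, where 2.32% of all tested genes were called higher and 1.07% lower. PLK2 (2.85 ± 0.43), CDKN1A (2.06 ± 0.45), AEN (1.38 ± 0.26), BTG2 (1.34 ± 0.31), MDM2 (1.17 ± 0.17), PPM1D (0.95 ± 0.13), TRIAP1 (0.81 ± 0.17) and PMAIP1 (0.68 ± 0.17) made up the 8. This count moved with single libraries: 3 without Doxo+Cyta replicate 19 (PLK2, MDM2 and PPM1D), 4 without replicate 22, without Doxo replicate 5 or without Doxo replicate 6 (the same 3 and AEN), and 13 without Doxo+Cyta replicate 20. Without both Doxo replicate 4 and Doxo+Cyta replicate 20 it was 14, and with only these 2 groups in the fit it was 4 (BTG2, PLK2, MDM2 and PPM1D). The share of all tested genes called higher moved too, from 0.751% without Doxo+Cyta replicate 19 to 2.77% without Doxo+Cyta replicate 20. It was 1.63% without Doxo+Cyta replicate 22, and 0.99% and 1.1% without Doxo replicates 5 and 6. Without both libraries it was 5.17%, and with only these 2 groups in the fit it was 0.455%.

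**Figure D4:**
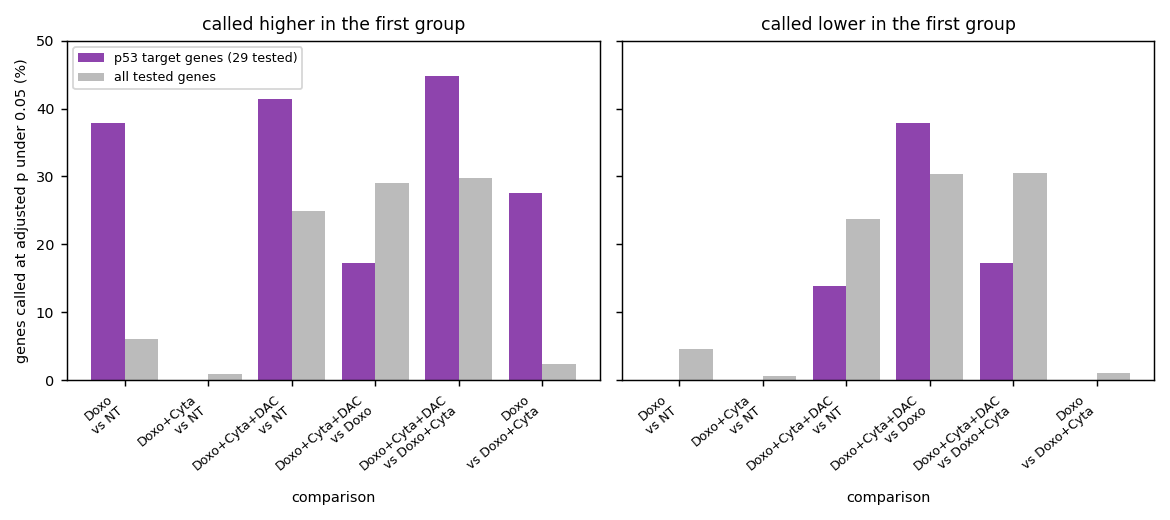
Share of the 29 tested members (purple) and of all tested genes (gray) called higher (left panel) or lower (right panel) in the first-named group, in percent, for the 6 comparisons. The members' share called higher is 37.9% against 6.06% in Doxo relative to NT, 0% in Doxo+Cyta relative to NT, and 41.4% against 24.9% in Doxo+Cyta+DAC relative to NT.

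The calls can be set beside the p53 elements. Of the tested members with a RefSeq start, 5 of 12 with an element and 5 of 11 without one were called higher in Doxo relative to NT, and 5 of 12 and 4 of 11 in Doxo+Cyta+DAC. In Doxo relative to Doxo+Cyta these counts were 6 of 12 and 2 of 11. In Doxo+Cyta+DAC they were 6 of 12 and 4 of 11 relative to Doxo+Cyta, and 1 of 12 and 1 of 11 relative to Doxo. Members were called lower only in Doxo+Cyta+DAC, with 4 of 12 and 5 of 11 when compared with Doxo. The lower counts were 1 of 12 and 2 of 11 against Doxo+Cyta, and 1 in each set against NT. Among all tested genes, 6.06% were higher in Doxo against NT and 2.32% against Doxo+Cyta. For Doxo+Cyta+DAC, 24.9% were higher and 23.7% lower against NT, 29.8% and 30.5% against Doxo+Cyta, and 29.1% and 30.4% against Doxo. Whether calls differ with the presence of an element was not tested. The window covers only the surroundings of 1 start per gene, and a gene without these letters in it may hold them elsewhere.

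A second list held 50 other p53 targets, of which 41 were tested. In Doxo 7 were higher and 1 lower (NADSYN1, -0.39), or 17.1% and 2.44%, against 6.06% and 4.63% of all tested genes. In Doxo+Cyta the counts were 0 and 0, where only 0.911% and 0.551% of all tested genes were called. In Doxo+Cyta+DAC 11 were higher and 9 lower, or 26.8% and 22%, which is near the 24.9% and 23.7% of all tested genes. TIGAR, a regulator of glycolysis, measured 1.13 and 1.01 CPM in NT, 13.5, 8.15 and 9.09 CPM in Doxo, 0.742, 3.87 and 1.16 CPM in Doxo+Cyta and 9.62, 15.6, 9.08 and 8.87 CPM in Doxo+Cyta+DAC, and was called higher in Doxo (3.24 ± 0.54) and in Doxo+Cyta+DAC (3.32 ± 0.53). Doxo+Cyta replicate 20 again lay above its mates. THBS1, a secreted inhibitor of angiogenesis, was higher in Doxo+Cyta+DAC (3.62 ± 0.58), and ORAI3, a calcium channel subunit (-1.72 ± 0.16), and ANKRA2 (-1.64 ± 0.15) were lower there. Among the 22 tested regulators of p53, 2 were higher (SIRT1 at 0.77 and RPL11 at 0.55) and 1 lower in Doxo. These are 9.09% and 4.55%, against 6.06% and 4.63% of all tested genes. The counts were 0 and 1 in Doxo+Cyta (0% and 4.55%, against 0.911% and 0.551%). They were 7 and 2 in Doxo+Cyta+DAC (31.8% and 9.09%, against 24.9% and 23.7%). The kinase ATR, which senses replication stress, was lower in Doxo (-1.10 ± 0.16) and in Doxo+Cyta (-1.06 ± 0.16), and its relative ATM fell by 1.00 ± 0.24 on the log2 scale in Doxo+Cyta+DAC. PPP1R13L, an inhibitor of p53 (-0.74 ± 0.16), was also lower there, and the kinase HIPK2 (1.11 ± 0.22) and the acetyltransferase EP300 (0.96 ± 0.20) were higher.

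Genes that p53 represses through p21 and the DREAM complex, mostly mitotic genes, gave 0 calls of 20 in Doxo and 0 of 20 in Doxo+Cyta. Of all tested genes, 6.06% were called higher and 4.63% lower in Doxo, and 0.911% and 0.551% in Doxo+Cyta. In Doxo+Cyta+DAC 2 of the 20 were higher (MYBL2 at 0.92 and FOXM1 at 0.42) and 5 lower, led by the mitotic kinase BUB1 (-1.37) and the phosphatase CDC25C (-0.90), with TOP2A, CCNB2 and AURKB between -0.50 and -0.35. These are 10% and 25% of the list, against 24.9% and 23.7% of all tested genes, so the share called lower is near the background. The DREAM list's median was 0.01 in Doxo and -0.18 in Doxo+Cyta+DAC.

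Genes of other signalling routes were counted in the same way, beside all tested genes, of which 6.06% were called higher and 4.63% lower for Doxo, 0.911% and 0.551% with cytarabine added, and 24.9% and 23.7% for Doxo+Cyta+DAC. Of the 17 tested immediate early genes, 13 (76.5%) were higher in Doxo relapses, 2 (11.8%) after Doxo+Cyta (FOSB at 1.35 and JUN at 1.14) and 7 (41.2%) in Doxo+Cyta+DAC, where 2 (11.8%) were lower. FOSB (4.55 ± 0.33) and EGR3 (4.29 ± 0.49) led in Doxo, and EGR1 (-2.14 ± 0.27) and DUSP1 (-0.46 ± 0.17) were lower in Doxo+Cyta+DAC. Between Doxo+Cyta+DAC and Doxo, 15 of the 17 (88.2%, against 30.4% of all tested genes) were lower in Doxo+Cyta+DAC. ATF4 and CHOP targets of the integrated stress response gave 4 of 14 (28.6%) higher in Doxo, led by ATF3 (1.86 ± 0.31) and completed by PPP1R15A, CEBPB and ATF4 between 1.18 and 0.65, and 0 in Doxo+Cyta. In Doxo+Cyta+DAC 4 of them were higher and 5 lower (28.6%, near the share of all tested genes, and 35.7%), with SLC7A11, PSAT1, PHGDH and ATF4 at 1.47, 1.45, 0.89 and 0.33 and VLDLR, DDIT4, CHAC1, PPP1R15A and DDIT3 at -3.13, -1.37, -1.05, -0.88 and -0.68. FOXO targets gave 3 of 11 (27.3%) higher in Doxo, namely IRS2 (1.34), TXNIP (0.93) and BNIP3 (0.77), and 1 higher (CITED2, 0.52, 9.09%) and 8 lower (72.7%) in Doxo+Cyta+DAC, led by PIK3IP1 (-2.74) and SESN3 (-2.54). The part of these genes' routes in the members' differences was not tested.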

How the data were processed

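RNA was sequenced from 12 HEL samples in 4 groups named from the sample labels. The authors quality-filtered paired reads, aligned them to GRCh38 with Bowtie2 2.2.8, an aligner that places no read across a splice junction, and counted fragments per gene with featureCounts 1.6.0 without strand. The deposited values are raw counts per gene, of which 4 rows with missing counts were left out (no member). PLK3, FBXO22, TP53I3, TNFRSF10B, TNFRSF10C and POLH share exon bases with another gene, so their fragments there can be lost or not assigned to a strand. The series text speaks of 3 untreated samples, and 2 are labelled so here.

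Counts of all 12 libraries were fitted together with edgeR 4.0.16 in R 4.3.3 (TMM scaling, filterByExpr, quasi-likelihood test, Benjamini-Hochberg adjustment over 14164 genes, prior count of 2 for log2 CPM). DESeq2 1.42.0 and other settings were alternatives. The script was tested on simulated data. The study's methods describe the replicates of a treatment as biological and derived from the same cell line, so p-values measure the spread between cultures of 1 line. 3 counts in a library correspond to the limit that a count of 0 allows. p53 elements were read from GRCh38 around RefSeq starts, which the table used here held for 24 members.

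Members, lists and tests were chosen with earlier results of these data known. Values in every library were given for members called with a log2 fold change of at least 1 in size in a comparison with NT, or in both comparisons of Doxo+Cyta+DAC with the other relapses, and for CDKN1A and MDM2. Of other lists, the 2 called genes with the largest change in each direction and with libraries apart from NT were named, along with MDM4, CHEK1 and CHEK2, and some results are not reported here. Counts of 5 or fewer were named in full, and PECAM1 and the values of TIGAR per library given, after their values were seen.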

Additional observations from a re-analysis of the deposited data

Results flagged for a closer look

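Among 29 members tested for an outlying library in the 4 Doxo+Cyta+DAC samples, 4 had one, where chance alone gives about 1 in 20. TP53INP1 was highest in replicate 31 (its gap to the nearest library was 0.942 of the range, past the 95% critical value of Dixon), RPS27L was highest in replicate 31 (0.89), FDXR was highest in replicate 32 (0.916) and RRM2B was lowest in replicate 30 (0.903). Groups of 2 or 3 libraries were too small for this check, so Doxo replicate 4 and Doxo+Cyta replicate 20 could not be assessed by it.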

How the results depend on the processing

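Of the 69 called differences of members, 400 values under other settings kept their direction and side of the threshold and 10 lost the call, and with replicates left out 379 kept it and 66 lost it. None changed sign. DESeq2 called 1 member lower in Doxo relative to NT (FBXO22, against 0), and 1 higher and 1 lower in Doxo+Cyta relative to NT (against 0 and 0). With only the groups compared in the fit, 4 members (against 8) exceeded Doxo+Cyta in Doxo, as did 0.455% of all tested genes (against 2.32%). Upper-quartile scaling ended the call of PLK3 in Doxo and of FDXR in Doxo+Cyta+DAC relative to NT. The cause of these shifts was not tested.

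Leaving out replicates, members higher ranged from 1 to 12 and members lower from 0 to 1 in Doxo relative to NT, with 1 in either fit that left a single NT library. The fit with 12 and 1 left out Doxo replicate 4, and 10.1% of all tested genes were higher in it and 12.2% lower. Members higher ranged from 3 to 14 in Doxo relative to Doxo+Cyta, where 0.751% to 5.17% of all tested genes were higher. The fit with 14 left out Doxo replicate 4 and Doxo+Cyta replicate 20 and was added after seeing the data. The median in Doxo+Cyta relative to NT ranged from -0.14 to 0.08. In Doxo+Cyta+DAC relative to NT, 11 to 12 members were higher and 4 to 5 lower when 1 Doxo+Cyta+DAC library was left out. Of all tested genes, 22.6% to 24% were higher and 21.8% to 22.7% lower in these fits. These ranges do not hold for either fit that left a single NT library, where fewer members and fewer of all tested genes were called higher. With any 1 library of either group left out, the members' median there ranged from 0.26 to 0.48.

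Uncalled differences near 0 changed sign. MDM4 in Doxo+Cyta was -0.02 without a count filter. CHEK2 in Doxo+Cyta+DAC was -0.04 with upper-quartile scaling and -0.00 with the stricter filter. With replicates left out, MDM4 ranged from -0.12 to 0.29 in Doxo and from -0.06 to 0.08 in Doxo+Cyta, and CHEK2 in Doxo+Cyta ranged from -0.22 to 0.03.

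No paired analysis was possible because the groups share no replicate numbers. NT held 2 libraries, which limits every comparison with it, and PLK2, TP53INP1 and TP53I3 rested on few counts.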
